A study of Mus musculus with 8 samples.

Results

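The tumour necrosis factor (TNF) ligand and receptor superfamily was followed in primary mouse brain pericyte cultures exposed to transforming growth factor-β1 (TGF-β1). Members were all protein-coding genes named Tnf, Tnfsf or Tnfrsf followed by a number, together with Fas, Fasl, Lta, Ltb, Ltbr, Cd40, Cd40lg, Cd27, Cd70, Eda, Edar, Eda2r and the adaptor genes Traf1 to Traf7, which gave 51 genes of the 54532 identifiers counted. They comprised 18 ligands, 26 receptors and 7 TRAF adaptors. Bulk total RNA was sequenced from 8 wild-type (WT) cultures, of which 4 received vehicle and 4 received TGF-β1 at 5 μg/mL, both for 48 h. The cells were grown from homogenised, enzymatically dissociated brain through several passages in serum-containing media, and no strain, sex or age of the animals was given in the sources used here. The study's methods describe 4 independent isolates that were each given both treatments, whereas the sample labels number the vehicle cultures 1 to 4 and the TGF-β1 cultures 5 to 8 and call them 8 cultures, so p-values measure the spread between these cultures and no pairing was used.

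TNF superfamily ligands are mostly trimeric membrane proteins, many of which are also released by shedding, and each engages one or a few receptors with cysteine-rich extracellular domains. Receptors with a cytoplasmic death domain can assemble caspase-activating complexes, receptors without one recruit TRAF adaptors that feed NF-κB and MAP kinase signalling, and decoy receptors bind ligand without passing on a death signal. In vessel walls the family is best known for the control of inflammatory adhesion molecule and chemokine expression by TNF and lymphotoxins.

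The deposited libraries held 45255235 to 47651397 counts and depth did not differ detectably between groups (exact two-sided permutation test over 35 splits, p = 0.857). Of the 11 pericyte markers examined, 8 were expressed highly enough to be tested, among them Pdgfrb (202 CPM in vehicle, 291 CPM in TGF-β1), Cspg4 (82.9 and 169 CPM) and Notch3 (88.5 and 85.9 CPM), where CPM are counts scaled to a common library total. Anpep fell from 40.5 to 30.1 CPM and Mcam rose from 5.25 to 10.1 CPM. Des (0.685 CPM in vehicle, 0.623 CPM in TGF-β1) and Higd1b (0.278 and 0.276 CPM) were tested but barely detected. Kcnj8, Abcc9 and Vtn, which mark brain pericytes in tissue, averaged at most 0.114 CPM in either group, and Rgs5, another pericyte marker, fell from 8.62 to 2.13 CPM. Of 5 fibroblast markers, the collagen genes Col1a1 and Col1a2 stood at 1588 and 2121 CPM in vehicle and 2525 and 2852 CPM in TGF-β1. Pdgfra stood at 62.5 and 63.0 CPM, Dcn fell from 52.1 to 46.7 CPM and Lum was too low to test. Of 8 endothelial markers, Cdh5 stood at 375 CPM, Flt1 at 81.7 and Kdr at 17.9 CPM in vehicle, while Tek and Pecam1 were at 2.71 and 1.11 CPM and Cldn5, Erg and Emcn were too low to test. With TGF-β1, Flt1 rose to 99.2 CPM and Tek fell to 1.99 CPM. Of 5 astrocyte markers, Aqp4 was too low to test, Slc1a2 fell from 38.5 to 16.3 CPM and Slc1a3 rose from 9.74 to 15.2 CPM. Gfap (0.879 CPM in vehicle, 0.947 CPM in TGF-β1) and Aldoc (2.83 and 2.56 CPM) did not pass the test. Among 10 microglia and macrophage markers C1qb had no count in any culture and C1qa and Tyrobp averaged at most 0.011 CPM, although Tmem119 stood at 102 CPM in vehicle and 98.5 CPM in TGF-β1. The summed level of 8 T and B cell markers ranged from 1.14 to 1.65 CPM in vehicle and from 1.55 to 1.75 CPM in TGF-β1. In such bulk samples, fewer cells of a type and less RNA per cell cannot be told apart.

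TGF-β1 was accompanied by a strong fall of the ligand TRAIL (Tnfsf10) and rises of the ligand CD137L (Tnfsf9) and its weakly expressed receptor Tnfrsf9. The 3 clustered receptors Tnfrsf22, Tnfrsf23 and Tnfrsf26 approximately doubled, and some of the other receptors and adaptors shifted by less. Of the 51 members, 40 were expressed highly enough to be tested by edgeR's quasi-likelihood test, with p-values adjusted by the Benjamini-Hochberg method over all 22544 genes tested. Among these, 23 had an adjusted p under 0.05 (57.5%), with 16 higher and 7 lower in TGF-β1. For comparison, 41.3% of all genes tested were called, 20.9% higher and 20.3% lower. The 8 culture values did not overlap between groups for 21 of the 40 members, against 37.9% of all genes tested. Among the called ligands, Tnfsf11, Tnfsf8 and Tnfsf18, passed the filter on low counts only through the TGF-β1 cultures. Leaving out these and Lta, whose counts passed in only some cultures of each group, 36 members were above the filter in all 8 cultures, of which 13 rose and 7 fell (55.6% called). Under a similar filter, at least 10 counts in every culture, 8994 of 19993 genes were called. The median log2 fold change (TGF-β1 over vehicle) of the 40 members was 0.07 and that of all genes tested was -0.01. The median size of the change irrespective of sign was 0.22 and 0.18, respectively. The 0.22 includes the 3 ligands that passed the filter only through the TGF-β1 cultures, so nothing is drawn from this difference. For the 36 members above the filter in all 8 cultures the median size was 0.19, and 19 did not overlap between groups. For the 32 members with a mean of at least 1 CPM the median size was 0.17.

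**Figure D1:**
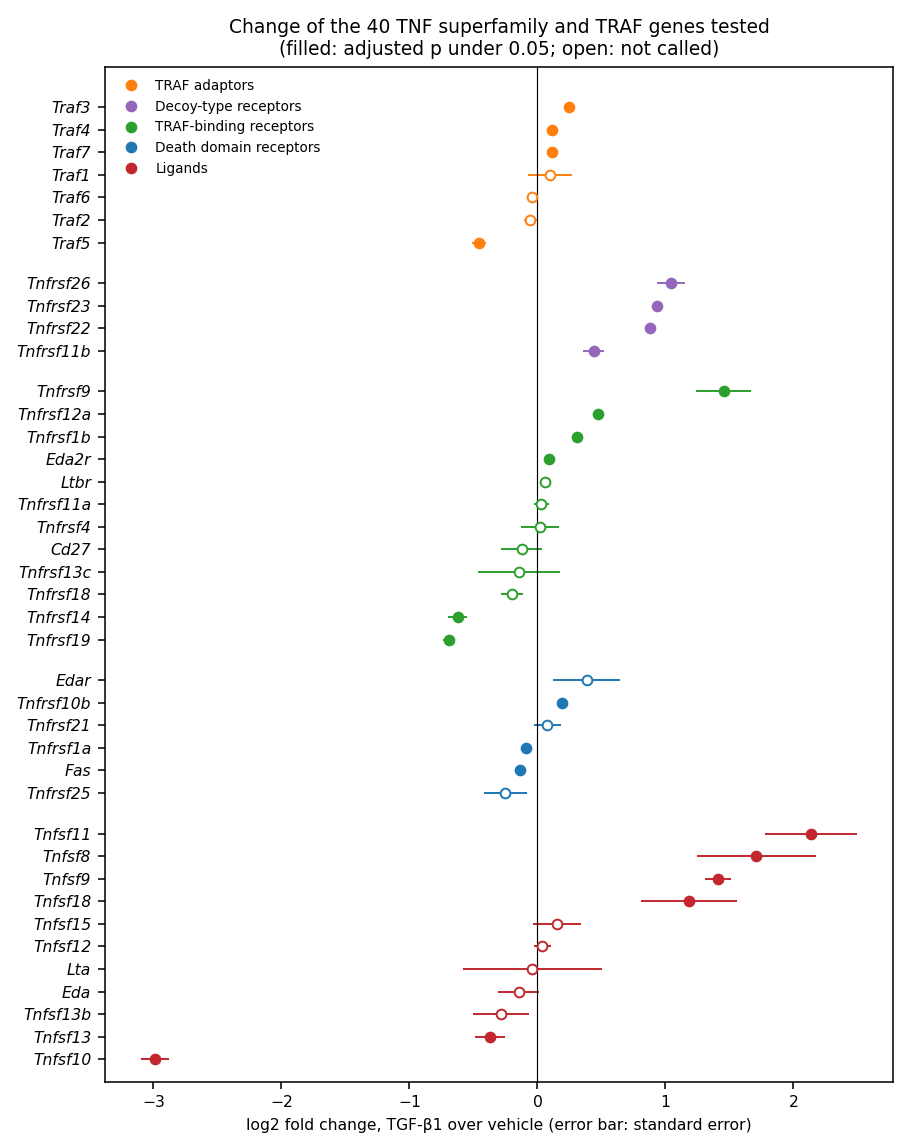
Log2 fold change (TGF-β1 over vehicle, x axis) of each of the 40 members tested, grouped by role, with bars for the standard error and filled points for an adjusted p under 0.05. Tnfsf10 stands alone on the left at -2.99, the decoy-type receptors lie between 0.44 and 1.04, and all 7 TRAF adaptors lie between -0.45 and 0.25.

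Ligands were expressed at far lower levels than receptors. The CPM of all 18 ligands summed to 30.8 to 35.1 in the vehicle cultures and 27.6 to 29.9 in the TGF-β1 cultures, whereas the 26 receptors summed to 905 to 933 CPM and 1118 to 1146 CPM, respectively. Of the ligands, 4 rose, 2 fell, 5 did not pass the test and 7 were too low to be tested. The 6 called of 11 tested include 3 that passed the filter only through the TGF-β1 cultures. Nothing is therefore drawn from this share beside the 41.3% of all genes. Of the 6 ligands with a mean of at least 1 CPM, 3 were called. Of the 4 rises, only that of Tnfsf9 did not depend on passing the filter through the TGF-β1 cultures.

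Tnfsf10 encodes TRAIL, a ligand that triggers apoptosis through death receptors. It stood at 11.3, 9.94, 10.7 and 9.21 CPM in the vehicle cultures and at 1.11, 1.57, 1.24 and 1.26 CPM in the TGF-β1 cultures. All 4 TGF-β1 cultures lay far under the lowest vehicle culture. The counts behind these values were 523, 453, 507 and 425 in vehicle and 51, 72, 57 and 59 in TGF-β1. Tnfsf10 was 7.93-fold lower with TGF-β1 (log2 fold change -2.99 ± 0.11 SE, adjusted p = 1.61e-25), and only 9 of the 22544 genes tested had a more negative log2 fold change. The gene lies on chromosome 3 (GRCm38, 27317028 to 27342427, plus strand). Its promoter window is shown because it carries the sharpest fall in the family. The sequence is the RefSeq window from 250 bases before to 50 bases after the annotated start (GRCm38.p6, chr3:27316827-27317126, plus strand), with the 2 matches to the interferon regulatory factor (IRF) type word AANNGAAA, searched on both strands, in capitals.
Tnfsf10: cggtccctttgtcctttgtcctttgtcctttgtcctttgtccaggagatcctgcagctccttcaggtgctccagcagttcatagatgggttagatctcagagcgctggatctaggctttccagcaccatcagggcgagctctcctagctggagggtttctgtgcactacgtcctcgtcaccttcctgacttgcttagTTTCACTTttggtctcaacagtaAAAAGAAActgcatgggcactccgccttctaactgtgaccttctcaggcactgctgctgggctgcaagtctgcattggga
The matches lie 53 to 46 and 30 to 23 bases before the RefSeq start, which itself is 49 bases downstream of the GENCODE start. The word occurred in 23.9% of all 32851 RefSeq windows of 300 bases, so its presence is a description of the sequence and not evidence of a bound site. The TGF-β-responsive Smad box CAGAC had 1 match in the Tnfsf10 window and occurred in 49.6% of all windows, and neither the AP-1 word TGANTCA nor the NF-κB word was found in it.

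Tnfsf9 encodes the ligand of CD137, a costimulatory receptor. Its levels were 2.82, 2.24, 2.93 and 2.86 CPM in vehicle and 7.48, 7.62, 6.57 and 7.21 CPM in TGF-β1. Every TGF-β1 culture exceeded every vehicle culture by more than the spread within either group. Tnfsf9 was 2.66-fold higher (log2 fold change 1.41 ± 0.10 SE, adjusted p = 1.47e-15). An antisense gene, Gm11110, overlaps 14.9% of its exons, and since the strand setting of the counting was not given in the sources used here, reads of the pair cannot be told apart there.

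Tnfsf13, which encodes APRIL, a B cell survival factor, measured 3.91, 3.86, 3.35 and 3.77 CPM in vehicle and 2.97, 2.72, 2.90 and 2.89 CPM in TGF-β1. The groups did not overlap and the level fell by 0.37 on the log2 scale (SE 0.12, adjusted p = 0.00829). Its neighbour Tnfsf12, which encodes TWEAK, did not pass the test and ranged from 10.1 to 11.8 CPM in vehicle and from 10.8 to 11.9 CPM in TGF-β1. Both genes share exons with the annotated readthrough gene Tnfsfm13, over 60.0% of the exon length of Tnfsf13 and 48.3% of that of Tnfsf12, so their individual counts are uncertain.

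A further 3 weakly expressed ligands, known from the immune system and bone, had higher values in TGF-β1. They passed the filter only through the TGF-β1 cultures, so their values are a description and nothing is drawn from their tests. Tnfsf11 encodes RANKL, the osteoclast differentiation factor, and had 4, 6, 8 and 12 counts in vehicle and 30, 43, 38 and 22 counts in TGF-β1. No TGF-β1 culture reached down to the vehicle cultures (log2 fold change 2.14 ± 0.36 SE, adjusted p = 3.33e-06). Tnfsf8, the CD30 ligand gene, had 10, 2, 2 and 5 counts in vehicle and 13, 19, 14 and 17 counts in TGF-β1. The groups again did not overlap (log2 fold change 1.71 ± 0.46 SE, adjusted p = 0.00242), with a vehicle culture at 10 counts close to the lowest TGF-β1 culture at 13. Tnfsf18, the GITR ligand gene, had 8, 13, 8 and 10 counts in vehicle and 12, 31, 20 and 26 counts in TGF-β1. Here the ranges overlapped (log2 fold change 1.18 ± 0.37 SE, adjusted p = 0.0085), and without TGF-β1 culture 6 the adjusted p was 0.0619. All 3 genes remained under 1 CPM in every culture. Of the 10 microglia and macrophage markers, 7 were tested and only Csf1r was called. It ranged from 0.987 to 1.86 CPM in vehicle and from 2.31 to 2.88 CPM in TGF-β1. The leukocyte gene Ptprc (0.727 CPM in vehicle, 0.758 CPM in TGF-β1), Cx3cr1 (0.777 and 1.03 CPM) and P2ry12 (0.152 and 0.303 CPM) did not pass the test. Neither did Aif1 (0.355 and 0.255 CPM), Itgam (0.227 and 0.216 CPM) and Tmem119 (102 and 98.5 CPM). The part of such cells in the change of these ligands was not tested.

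The other ligands gave no detectable difference. Tnfsf15, Eda, Tnfsf13b and Lta did not pass the test, with mean levels between 0.160 and 1.70 CPM and log2 fold changes between -0.28 and 0.15. Tnf itself had 2, 2, 3 and 6 counts in vehicle and 2, 0, 0 and 2 counts in TGF-β1, and Fasl had 2, 0, 4 and 4 against 9, 6, 6 and 2 counts, too few in either case to be tested. Cd40lg had no count in any culture, which at 3 counts as the limit of a count of 0 allows a level of up to 0.0630 to 0.0663 CPM per culture (counting error only, and in deposited counts, which may exceed the number of fragments because most low counts were even). Cd70, Ltb, Tnfsf14 and Tnfsf4 were likewise under the filter, at no more than 10 counts in any culture.

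**Figure D2:**
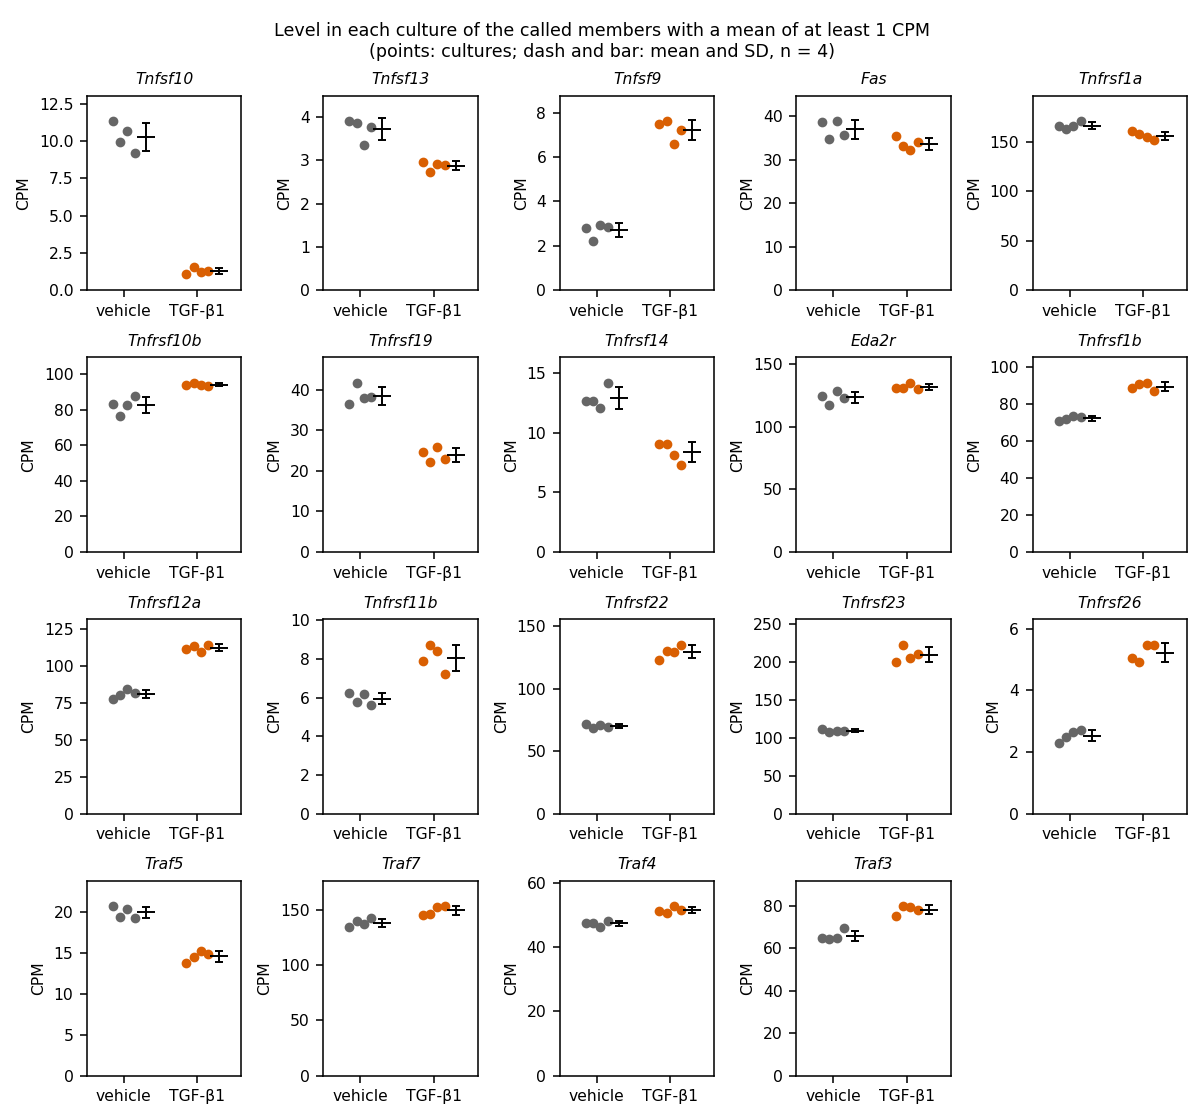
CPM in each culture (points) of the 19 called members with a mean of at least 1 CPM, vehicle in grey and TGF-β1 in orange, with the mean and SD (n = 4) beside the points and every axis starting at 0. The Tnfsf10 panel shows the vehicle cultures between 9.21 and 11.3 CPM and the TGF-β1 cultures between 1.11 and 1.57 CPM, and only Fas has overlapping groups.

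All 4 decoy-type receptors rose, without overlap between the groups. Of all genes tested, 20.9% were higher and 37.9% had groups that did not overlap. Tnfrsf22 and Tnfrsf23 encode mouse decoy receptors that bind TRAIL and lack a death domain, and Tnfrsf26, a related receptor gene, adjoins them on chromosome 7. Tnfrsf23 measured 112, 107, 109 and 109 CPM in vehicle and 200.1, 223, 205 and 210.0 CPM in TGF-β1, a 1.92-fold rise (log2 fold change 0.94 ± 0.03 SE, adjusted p = 6.72e-29). The lowest TGF-β1 culture lay well above the highest vehicle culture. Tnfrsf22 went from 72.2, 68.6, 71.4 and 69.8 CPM to 123, 131, 129.6 and 135 CPM, a 1.84-fold rise (log2 fold change 0.88 ± 0.03 SE, adjusted p = 2.96e-27). Tnfrsf26 was expressed at lower levels, with 2.28, 2.50, 2.65 and 2.71 CPM in vehicle and 5.04, 4.90, 5.48 and 5.47 CPM in TGF-β1 (2.06-fold, log2 fold change 1.04 ± 0.11 SE, adjusted p = 8.18e-11). Thus the 3 neighbours approximately doubled, although their levels differed widely. Tnfrsf11b encodes osteoprotegerin, a secreted decoy for RANKL and TRAIL, and stood at 6.23, 5.77, 6.17 and 5.61 CPM in vehicle and at 7.90, 8.73, 8.42 and 7.19 CPM in TGF-β1. Its rise was smaller (log2 fold change 0.44 ± 0.08 SE, adjusted p = 2.84e-05) but also free of overlap.

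The 3 clustered receptor genes occupy 78.2 kb of chromosome 7 (GRCm38, Tnfrsf26 at 143607659 to 143628722, Tnfrsf22 at 143634806 to 143649661 and Tnfrsf23 at 143665809 to 143685872, all on the minus strand). Within 200 kb on each side, 21 other genes are annotated, of which 14 were tested, 3 were higher and 5 were lower. Of all genes tested, 20.9% were higher and 20.3% lower. Apart from an antisense gene, the flanking genes tested had log2 fold changes from -1.26 to 0.47. Osbpl5, on the side of Tnfrsf23, had a log2 fold change of 0.02 and did not pass the test, and on the other side Cars rose by 0.17 and Nap1l4 by 0.08 on the log2 scale. Cdkn1c, an imprinted inhibitor of the cell cycle at the far end, fell by 1.26 on the log2 scale. The exception was the antisense gene E230032D23Rik (log2 fold change 1.24 ± 0.28 SE, adjusted p = 0.00025, 0.345 CPM in vehicle), which overlaps 3.33% of the exons of Tnfrsf26 and 4.14% of those of Tnfrsf23. It had only 14 to 18 counts in the vehicle cultures. Because the strand setting of the counting was not given, its reads and those of the receptors cannot be told apart in the overlaps.

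**Figure D3:**
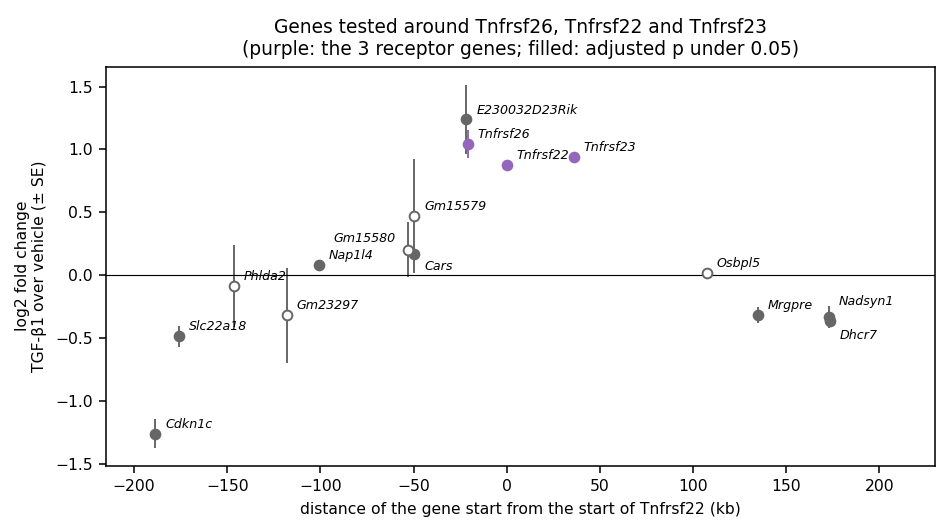
Log2 fold change (TGF-β1 over vehicle, y axis, with SE) of the genes tested around the receptor cluster against the distance of their start from that of Tnfrsf22 in kb (x axis), with the 3 receptors in purple and filled points for an adjusted p under 0.05. The 3 receptors lie between 0.88 and 1.04, together with the antisense gene at 1.24, while the other neighbours with a called change lie between -1.26 and 0.17.

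Tnfrsf22 and Tnfrsf23 resemble each other closely. The longest annotated coding sequences, of 594 and 528 bases, were identical at 90.7% of 528 aligned bases, and 27.4% of the 50-base words of Tnfrsf22 transcripts and 18.0% of those of Tnfrsf23 transcripts occurred also in another gene, chiefly in each other. How reads matching both were assigned was not stated, so the split between them is uncertain. Their sum would also lose reads if such reads were discarded. Some words of Tnfrsf22 occur in Gm47486 and AC136710.2 as well, and the effect on the sum was not tested. The promoter window of Tnfrsf23 is shown as that of the most highly expressed cluster member, chosen after its values were seen (GRCm38.p6, chr7:143685826-143686125, minus strand, start 3 bases from that of GENCODE), with its 1 match to the Smad box CAGAC, on the opposite strand after the start, in capitals.
Tnfrsf23: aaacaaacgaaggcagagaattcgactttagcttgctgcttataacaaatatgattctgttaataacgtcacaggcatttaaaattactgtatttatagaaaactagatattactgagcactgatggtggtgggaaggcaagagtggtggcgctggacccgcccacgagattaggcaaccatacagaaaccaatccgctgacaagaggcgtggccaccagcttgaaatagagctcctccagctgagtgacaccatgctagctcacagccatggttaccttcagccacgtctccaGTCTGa
None of the AP-1, NF-κB or IRF words was found in this window.

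Of the 6 death domain receptors, 1 rose, 2 fell and 3 did not pass the test, all by small amounts. The share called was 50%, against 41.3% of all genes tested. Tnfrsf10b encodes the mouse death receptor for TRAIL and measured 83.2, 76.6, 82.8 and 87.5 CPM in vehicle and 94.0, 95.2, 94.0 and 93.4 CPM in TGF-β1. The groups did not overlap (log2 fold change 0.19 ± 0.03 SE, adjusted p = 1.98e-06). Tnfrsf1a, the ubiquitous TNF receptor with a death domain, had 165.8, 164, 165.8 and 171 CPM in vehicle and 161, 158, 155 and 152 CPM in TGF-β1. It fell by 0.09 on the log2 scale (SE 0.03, adjusted p = 0.0033), with the lowest vehicle culture at 164 CPM just above the highest TGF-β1 culture at 161 CPM. Fas, the receptor of Fas ligand, measured 38.6, 34.7, 38.9 and 35.7 CPM in vehicle and 35.4, 33.1, 32.1 and 34.0 CPM in TGF-β1. The ranges overlapped and the fall of 0.13 on the log2 scale (SE 0.04, adjusted p = 0.00921) was lost without vehicle culture 1 (adjusted p = 0.0609) or vehicle culture 3 (adjusted p = 0.0737). The ectodysplasin receptor gene Edar (0.556 CPM in vehicle, 0.726 CPM in TGF-β1), Tnfrsf25 (1.65 and 1.39 CPM) and Tnfrsf21 (4.94 and 5.21 CPM) did not pass the test, with adjusted p-values of 0.259, 0.258 and 0.602.

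The TRAIL system therefore held members that moved in opposite directions. Compared per kb of exon, at which levels of different genes can be set side by side, TRAIL fell from 1.95 ± 0.18 to 0.246 ± 0.037 CPM per kb (SD, n = 4). The death receptor Tnfrsf10b stood at 15.1 ± 0.82 and 17.3 ± 0.14 CPM per kb, and the 3 clustered receptors summed to 45.1 ± 0.83 and 85.2 ± 3.2 CPM per kb. The ratio of the summed 3 receptors to Tnfrsf10b was 2.80 to 3.14 in the vehicle cultures and 4.71 to 5.08 in the TGF-β1 cultures. Relative to TRAIL, the same sum was 21.4 to 25.7 times as high in vehicle and 298 to 384 times as high in TGF-β1. Both ratios are descriptions of transcript levels that follow from the changes given above, and no protein was measured here.

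Of the 16 TRAF-binding receptors, 4 rose, 2 fell, 6 did not pass the test and 4 were too low to be tested. Of those tested, 50% were called, against 41.3% of all genes tested. Tnfrsf12a encodes Fn14, the receptor of TWEAK, and measured 77.4, 80.2, 84.3 and 81.3 CPM in vehicle and 112, 114, 109 and 114 CPM in TGF-β1. All TGF-β1 cultures lay above all vehicle cultures (log2 fold change 0.47 ± 0.03 SE, adjusted p = 3.7e-18). Tnfrsf1b, the TNF receptor without a death domain, stood at 70.8, 72.3, 73.9 and 73.0 CPM in vehicle and at 88.8, 91.3, 91.7 and 87.0 CPM in TGF-β1. It too rose without overlap (log2 fold change 0.31 ± 0.03 SE, adjusted p = 4.29e-12), in contrast to the slight fall of Tnfrsf1a. Eda2r, a receptor for the A2 form of ectodysplasin, measured 124, 117, 128 and 123 CPM in vehicle and 131, 131, 135 and 129.7 CPM in TGF-β1. This small rise (log2 fold change 0.09 ± 0.03 SE, adjusted p = 0.00495) left the highest vehicle culture, at 128 CPM, just under the lowest TGF-β1 culture.

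Tnfrsf9 encodes CD137, the receptor of the ligand encoded by Tnfsf9, and averaged just under 1 CPM. It had 23, 23, 26 and 23 counts in vehicle and 74, 55, 67 and 64 counts in TGF-β1. Each TGF-β1 culture held at least 55 counts against at most 26 in vehicle (2.74-fold, log2 fold change 1.45 ± 0.22 SE, adjusted p = 3.04e-07). Hence ligand and receptor of the CD137 pair both rose, from low levels.

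The receptors that fell in this class were Tnfrsf19 and Tnfrsf14. Tnfrsf19 encodes TROY, an orphan receptor known from the nervous system and hair follicles, and measured 36.5, 41.7, 37.9 and 38.2 CPM in vehicle and 24.6, 22.3, 25.9 and 22.9 CPM in TGF-β1. The groups were clearly apart (log2 fold change -0.69 ± 0.05 SE, adjusted p = 3.15e-16). Tnfrsf14 encodes HVEM, a receptor for LIGHT and lymphotoxin-α, and stood at 12.7, 12.7, 12.1 and 14.2 CPM in vehicle and at 9.06, 9.08, 8.10 and 7.28 CPM in TGF-β1. The groups did not overlap (log2 fold change -0.62 ± 0.07 SE, adjusted p = 1.64e-09). The window of the RefSeq start of Tnfrsf19 nearest to that of GENCODE, 365 bases away, is given as that of the receptor with the largest fall (GRCm38.p6, chr14:61046806-61047105, minus strand). It has no match to any of the 4 words and hence no capitals, whereas the window of the other RefSeq start of Tnfrsf19 has 1 Smad box.
Tnfrsf19: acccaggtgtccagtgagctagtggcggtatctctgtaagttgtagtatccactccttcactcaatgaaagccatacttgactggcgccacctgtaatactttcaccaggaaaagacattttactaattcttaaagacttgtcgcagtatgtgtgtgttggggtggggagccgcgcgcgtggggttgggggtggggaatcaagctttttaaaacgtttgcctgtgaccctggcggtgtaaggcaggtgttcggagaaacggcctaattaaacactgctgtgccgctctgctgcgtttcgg
RefSeq windows were at hand for 41 members and not for Cd40, Cd40lg, Cd70, Tnfrsf10b, Tnfrsf11b, Tnfrsf22, Tnfrsf26, Tnfsf12, Tnfsf4 and Tnfsf9. Of the 11 members with a window that rose, 5 had a Smad box, 1 an AP-1 word, 2 an NF-κB word and 4 an IRF word. Of the 7 that fell, 4 had a Smad box, 2 an AP-1 word, none an NF-κB word and 3 an IRF word, with Tnfrsf19 counted through its other window. Of the 16 tested members with a window that did not pass the test, 10 had a Smad box, 1 an AP-1 word, 1 an NF-κB word and 5 an IRF word. Over all windows the shares were 49.6%, 7.81%, 8.46% and 23.9%, respectively, and nothing is read from these small numbers.

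The remaining TRAF-binding receptors did not pass the test or were too scarce for it. Ltbr, the lymphotoxin-β receptor gene, ranged from 84.4 to 88.0 CPM in vehicle and from 87.2 to 92.3 CPM in TGF-β1 (adjusted p = 0.118). Tnfrsf18, which encodes GITR, ranged from 7.50 to 8.58 CPM in vehicle and from 5.79 to 8.12 CPM in TGF-β1 (log2 fold change -0.20 ± 0.09 SE, adjusted p = 0.0646), and 27.2% of its exon length overlaps an antisense gene. Ltbr passed the test without TGF-β1 culture 8 (adjusted p = 0.0477) and Tnfrsf18 without TGF-β1 culture 7 (adjusted p = 0.0131). Tnfrsf11a, which encodes RANK, varied little, from 14.4 to 14.9 CPM in vehicle and from 14.6 to 15.3 CPM in TGF-β1. Tnfrsf4, Cd27 and Tnfrsf13c averaged between 0.468 and 2.01 CPM and did not pass the test. Cd40, Tnfrsf8, Tnfrsf13b and Tnfrsf17, receptors typical of lymphocytes and antigen-presenting cells, stayed at 14 counts or fewer in every culture.

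When levels were ordered per kb of exon, Tnfrsf1a (64.3 CPM per kb), Tnfrsf12a (41.8), Ltbr (36.5) and Tnfrsf23 (27.6) led the receptors in vehicle, and the ranges of these 4 over the cultures did not overlap. In TGF-β1 the order was Tnfrsf1a (60.4 CPM per kb), Tnfrsf12a (58.0), Tnfrsf23 (52.9) and Ltbr (38.0). Tnfrsf23 thus moved above Ltbr, and the ranges of Tnfrsf1a and Tnfrsf12a came to overlap. Tnfrsf22 moved from the eighth to the fifth place, from 16.7 to 30.7 CPM per kb. Among the ligands in vehicle, Tnfsf12 led at 7.33 CPM per kb, followed by Tnfsf13 (2.27), Tnfsf9 (2.10) and Tnfsf10 (1.95), of which the last 3 overlapped from one to the next. In TGF-β1, Tnfsf9 took the second place at 5.60 CPM per kb and Tnfsf10 came to lie among the scarce ligands at 0.246 CPM per kb, where its range overlapped those of Tnfsf11 and Eda.

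**Figure D4:**
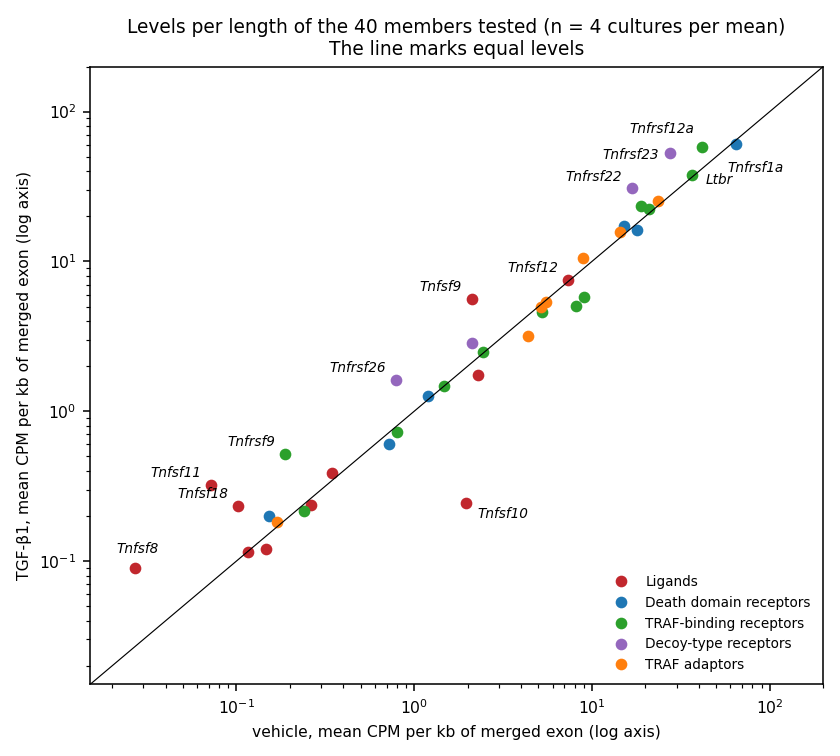
Mean CPM per kb of merged exon (log axes) in vehicle (x axis) and TGF-β1 (y axis) of the 40 members tested, coloured by role, with a line at equal levels. Tnfsf10 falls far below the line, from 1.95 to 0.246, while Tnfrsf23 and Tnfrsf22 lie above it at the upper end and the weakly expressed Tnfsf11 and Tnfrsf9 above it at the lower end.

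The TRAF adaptors, which link the receptors to ubiquitin ligases and kinases, were all expressed and changed by little, with 3 higher, 1 lower and 3 not passing the test. Of these adaptors, 57.1% were called, against 41.3% of all genes tested. Traf5, an adaptor of costimulatory receptors, measured 20.7, 19.5, 20.5 and 19.3 CPM in vehicle and 13.7, 14.5, 15.2 and 14.9 CPM in TGF-β1. This was the largest difference of the class and the groups lay apart (log2 fold change -0.45 ± 0.05 SE, adjusted p = 2.01e-09). Traf3, a brake on non-canonical NF-κB signalling, had 64.8, 64.4, 64.5 and 69.4 CPM in vehicle and 75.0, 79.6, 79.5 and 78.1 CPM in TGF-β1. It rose without overlap (log2 fold change 0.25 ± 0.03 SE, adjusted p = 1.04e-08). Traf4 measured 47.7, 47.6, 46.5 and 48.3 CPM in vehicle and 51.3, 50.6, 52.7 and 51.5 CPM in TGF-β1 (log2 fold change 0.12 ± 0.03 SE, adjusted p = 0.00415). Traf7 had 134, 140.1, 137 and 143 CPM in vehicle and 146, 147, 153 and 153 CPM in TGF-β1 (log2 fold change 0.11 ± 0.03 SE, adjusted p = 0.000571). Both of these small rises were free of overlap. Traf1, itself a well-known NF-κB target, ranged from 1.23 to 1.75 CPM in vehicle and from 1.40 to 1.96 CPM in TGF-β1, and Traf2 (28.3 and 27.2 CPM) and Traf6 (40.5 and 39.4 CPM), the adaptors shared by most TNF and interleukin-1 family receptors, also did not pass the test (adjusted p = 0.702, 0.467 and 0.396).

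Set side by side as ligand and receptor, the pairs differed in which partner moved. For TWEAK and Fn14, Tnfsf12 did not pass the test and Tnfrsf12a rose. For RANKL, the decoy Tnfrsf11b rose and the receptor Tnfrsf11a did not pass the test, and nothing is drawn from the ligand Tnfsf11, which passed the filter only through the TGF-β1 cultures. The same limit holds for Tnfsf18, whose receptor Tnfrsf18 did not pass the test. For TNF, lymphotoxin-β, LIGHT and Fas ligand the ligand was too low to be tested, while the receptors Tnfrsf1a, Tnfrsf1b, Ltbr, Tnfrsf14 and Fas all averaged more than 8 CPM in each group. The CD137 pair was the only one of those named here in which ligand and signalling receptor both rose.

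Genes that act downstream of or beside the receptors moved in both directions by similar numbers. Of 54 such genes, all of which were tested, 18 rose and 17 fell (64.8% called, against 41.3% of all genes), with a median log2 fold change of 0.02. Their median size of change irrespective of sign was 0.14, against 0.18 for all genes tested. Of the 54, 52 averaged at least 1 CPM, whereas all genes tested also include genes below that level. No genes at a like level were compared, so nothing is drawn from the share called or the median size. The 13 genes of the death and survival complexes comprised 4 that rose and 5 that fell. Mlkl, the executioner of necroptosis, fell from 77.2 ± 2.8 to 58.5 ± 1.5 CPM (SD, n = 4, log2 fold change -0.40, adjusted p = 2.62e-14), whereas the kinase acting upstream of it, Ripk3, rose from 37.4 ± 3.0 to 48.0 ± 2.1 CPM (0.36, adjusted p = 1.4e-08). Birc2, an inhibitor of apoptosis that binds TRAF adaptors, fell (-0.28, adjusted p = 1.04e-08). Among 23 ubiquitin enzymes and kinases, 7 rose and 7 fell. Rnf31, the catalytic subunit of the linear ubiquitin ligase, fell (-0.40, adjusted p = 1.46e-13), and the kinase gene Map3k5 (0.30, adjusted p = 0.00131) and the deubiquitinase gene Cyld (0.25, adjusted p = 6.75e-10) rose. Of the 11 NF-κB and IκB genes, 3 rose and 3 fell, with the atypical IκB genes Nfkbiz (0.63, adjusted p = 1.47e-20) and Bcl3 (0.42, adjusted p = 1.38e-08) higher and Nfkbie (-0.36, adjusted p = 6.99e-09) lower. Of 7 sheddase-related and structurally related receptor genes, 4 rose and 2 fell, among them the orphan receptor gene Relt (0.65, adjusted p = 3.68e-12) and the sheddase inhibitor gene Timp3 (0.34, adjusted p = 1.12e-13), which rose, and the sheddase gene Adam10 (-0.26, adjusted p = 4.08e-12), which fell.

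Genes known as targets of NF-κB in stromal and vascular cells were divided as well. Of 25 listed, 22 were tested, 11 rose and 7 fell (81.8% called, against 41.3% of all genes), and their median log2 fold change was 0.15. The list was chosen with earlier results of these data known, so nothing is drawn from this share. The strongest changes were falls of the chemokine genes Cxcl10 (94.0 ± 11.1 to 26.5 ± 6.3 CPM, log2 fold change -1.83 ± 0.18 SE, adjusted p = 0.000169) and Ccl5 (34.9 ± 2.0 to 12.4 ± 1.1 CPM, -1.49 ± 0.05 SE, adjusted p = 1.25e-25) and of the adhesion molecule gene Vcam1 (38.7 ± 1.3 to 12.9 ± 0.81 CPM, -1.58 ± 0.05 SE, adjusted p = 2.23e-28). In the other direction, and named after their values were seen, the metalloproteinase genes Mmp9 (1.32) and Mmp3 (1.08), the cytokine genes Lif (1.13) and Il6 (0.96) and the cyclooxygenase gene Ptgs2 (1.00) rose on the log2 scale. Several of these targets also respond to other pathways, and no pathway activity was measured here.

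**Figure D5:**
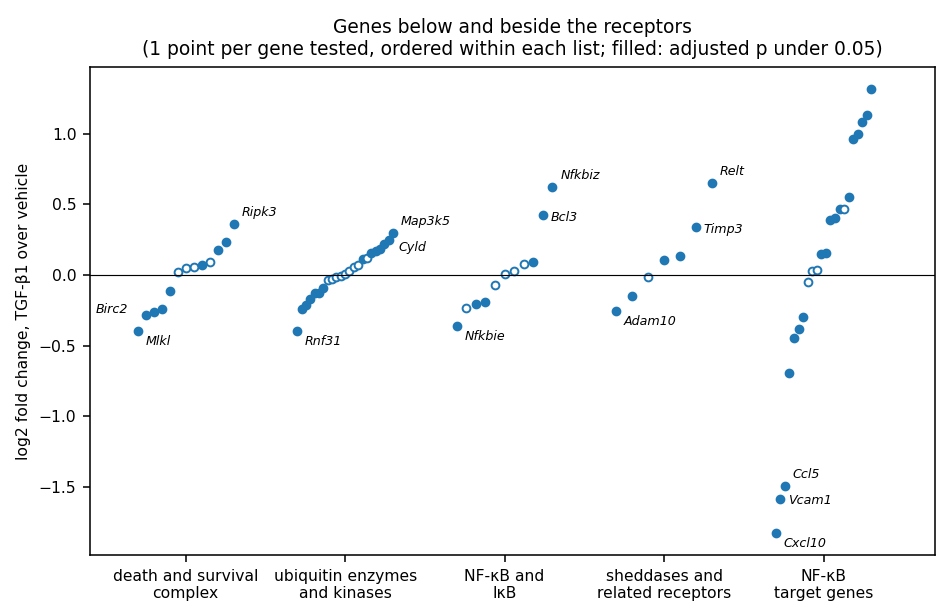
Log2 fold change (TGF-β1 over vehicle, y axis) of each tested gene in 5 lists of pathway genes and NF-κB targets, ordered by size within each list, with filled points for an adjusted p under 0.05 and the 3 called genes with the largest change named. Every list holds called genes on both sides of 0, and the NF-κB targets spread the widest, from -1.83 to 1.32.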

How the data were processed

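The data are deposited gene counts of 8 bulk total RNA libraries. Per the study's methods and the submitters' processing notes, the authors aligned reads to mm10 (GRCm38) with STAR 2.7.5c in two-pass mode, removed PCR duplicates with SAMtools 1.15, which can compress high counts, and made the counts with featureCounts 2.0.3. The library kit keeps strand, but the strand setting and how reads matching several genes were treated were not given in the sources used here. Of counts from 1 to 20, 68.5 to 70.2% were even, as when both mates of a fragment are counted, so printed counts may exceed the number of fragments, and halved counts (counts per fragment) were tried as an alternative. Identifiers were paired with symbols (54409 of 54532) and with GENCODE M21 positions (54495). Counts were tested with edgeR 4.0.16 in R 4.3.3 (filterByExpr with a minimum count of 10, TMM scaling, robust quasi-likelihood fit, 4 vehicle against 4 TGF-β1 cultures, no covariate), with Benjamini-Hochberg adjustment over 22544 genes and a threshold of 0.05. CPM use TMM-scaled library sizes, and levels between genes are divided by merged exon length. The fit was tested on simulated data. DESeq2 1.42.0, the tool used by the study, other scalings, other filters, halved counts and leaving out each culture were alternatives. Members with an adjusted p under 0.05 and at least 1 CPM are given culture by culture, for other members at most the 3 largest changes of each class, and of each other list the 3 called genes with the largest change. The members and lists were chosen with earlier results of these data known. The limit given for a count of 0 covers counting error only, whereas SE and SD include the spread between cultures.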

Additional observations from a re-analysis of the deposited data

Results flagged for a closer look

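Among 82 groups of 4 cultures examined, covering the CPM of the 40 tested members and the library totals, 4 held a culture far from the other three by Dixon's ratio, which chance alone gives in about 1 in 20 groups, or 4.1 of 82. Vehicle culture 2 had 2.24 CPM of Tnfsf9, with the nearest vehicle culture at 2.82 CPM. It lay on the side away from the TGF-β1 cultures. Vehicle culture 3 had 0.547 CPM of Tnfrsf9, with the nearest at 0.504 CPM, a gap of 3 counts. Vehicle culture 4 had 69.4 CPM of Traf3, with the nearest at 64.8 CPM, and lay toward the TGF-β1 cultures without reaching them. TGF-β1 culture 5 had 0.698 CPM of Tnfrsf13c, with the nearest at 0.383 CPM, in a gene that did not pass the test. Tnfsf9, Tnfrsf9 and Traf3 kept their call and direction when the culture concerned was left out.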

How the results depend on the processing

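No paired analysis was possible because the labels number the vehicle cultures 1 to 4 and the TGF-β1 cultures 5 to 8 and so share no number. Over DESeq2, other scalings and filters, counts per fragment and each culture left out, the number of members higher was 13 to 17, of members lower 6 to 8 and of all genes called 8559 to 9311. Of the 23 called members, 21 kept direction and call in every alternative that gave a value, and Fas and Tnfsf18 lost the call when a culture was left out. Tnfsf8, Tnfsf18, Lta and Tnfsf11 could not be tested with at least 10 counts required in every culture, nor could the first 3 of these with halved counts, and members higher then numbered 13 and 14. Sign changes occurred in 5 members that did not pass the test, each only when a culture was left out, with log2 fold changes from -0.48 to 0.28 for Lta, -0.45 to 0.049 for Tnfrsf13c, -0.029 to 0.089 for Tnfrsf4, -0.00069 to 0.072 for Tnfsf12 and -0.0088 to 0.19 for Traf1.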
